A study of Canis lupus familiaris with 9 samples.

Results

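The genes described here are the Sprouty, SPRED, DUSP and ETV genes that EGF and FGF signalling induces as feedback inhibitors and as transcription factors. A list of 10 genes was matched by gene symbol to the array's annotation, and 9 had a probe set: SPRY1, SPRY2, SPRY4, SPRED1, SPRED2, DUSP6, ETV1, ETV4 and ETV5, out of 15947 named genes. Each of the 9 had 1 probe set. DUSP4 was not analysed here. RNA signals were read in 9 samples of cultured dog cells, each on its own Affymetrix array, 3 per group.

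The Fibroblast group held skin cells grown in medium with 10% fetal bovine serum. The SKN group held skin cells grown as neural precursors without serum, with EGF at 20 ng/mL, FGF at 40 ng/mL and B-27 at 2%, and they first formed floating spheres. The Brain group held neural precursors derived from brain, and its medium is not given in the sources used here. Skin was spare tissue from dogs in routine surgery, no culture was treated before RNA was taken, and the age, breed and sex of the dogs are not given in the sources used here. In the comparisons with Brain, cell origin and medium therefore cannot be told apart. Fibroblast and SKN both came from skin and differed in medium and in growth as spheres, which cannot be told apart from each other. The sources used here do not say which dog or culture gave which sample, and a p-value therefore describes the spread of these arrays alone, which may be technical.

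EGF and FGF bind receptor tyrosine kinases, which pass the signal through RAS and the kinases RAF, MEK and ERK. Active ERK switches on genes that restrain the same route. Sprouty and SPRED proteins act between receptor and RAF, and DUSP6 removes the activating phosphates from ERK itself. ETV1, ETV4 and ETV5, the PEA3 group of ETS transcription factors, are induced by the pathway and carry its signal to target genes. EGF and FGF are the usual mitogens for growing neural precursors in culture, and serum supplies other growth factors to fibroblasts.

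The arrays were close in scale, with medians of 4.71 to 4.79 log2 units, and the correlation between 2 arrays of a group, over all probe sets, was 0.978 to 0.985. Of 7 measured neural stem and progenitor markers 1 was called higher in Brain than in Fibroblast, the filament gene NES (1.68 ± 0.23 SE), and 0 were called in either direction in SKN against Fibroblast by limma, where 2 had an unadjusted p under 0.05, both lower in SKN (PAX6, -1.35 ± 0.38, and FABP7, -0.28 ± 0.11). FABP7 read below the array medians in both groups, with means of 2.53 in Fibroblast and 2.25 in SKN. Of 6 measured neuron markers 1 was called higher in SKN than in Fibroblast and 0 lower. The counts were the same for 6 astrocyte markers, and 0 of 6 oligodendrocyte lineage markers were called. In SKN against Fibroblast 3.34% of all probe sets were called. In Brain against Fibroblast, where 20.6% were called, 1 neuron marker was called higher and 0 lower. There 1 astrocyte marker was called higher and 2 lower, and 2 oligodendrocyte lineage markers higher and 1 lower. Of 8 neural crest and Schwann cell markers 7 were called higher in Brain than in Fibroblast. Of 10 fibroblast matrix markers all 10 were called lower in Brain than in SKN, beside 16.4% of all probe sets called in that comparison. Against Fibroblast 9 were called lower in Brain and 1 higher (FBLN1, with means of 8.25 in Brain and 7.14 in Fibroblast). The matrix markers averaged 10.40 to 10.90 log2 units per array in Fibroblast and 11.04 to 11.28 in SKN. Fibroblast 1 averaged 5.61 over the crest markers, where Fibroblast 2 and 3 averaged 4.56 and 4.24. Brain 3 averaged 6.12 over the matrix markers, where Brain 1 and 2 averaged 4.74 and 4.56. In such bulk samples, fewer cells of a type and less RNA per cell cannot be told apart.

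SPRY1, SPRY2 and DUSP6 were lower in Fibroblast than in Brain and in SKN, whereas ETV4 and ETV5 were higher in SKN than in Brain. Each difference is given on the log2 scale, where 1 unit is a 2-fold signal, ± its standard error (SE) in limma, for 3 arrays against 3. A gene is called where its 2-sided limma p is under 0.05 after Benjamini-Hochberg adjustment across the 32205 probe sets of that comparison. Against Fibroblast, 5 of the 9 genes were called higher in SKN and 0 lower, beside 3.34% of all probe sets called (1.93% higher and 1.41% lower). In Brain against Fibroblast 4 of 9 were called higher and 0 lower, beside 20.6% of all probe sets called (11.2% higher and 9.37% lower). Between SKN and Brain 2 of 9 were called higher in SKN and 1 lower, beside 16.4% of all probe sets called (7.64% higher and 8.73% lower). The share called was higher among the 15947 named genes, with 1 probe set each and p adjusted over these alone. There 1078 were called in SKN against Fibroblast, 4885 in Brain against Fibroblast and 4178 in SKN against Brain. Of the 9 feedback genes 5, 4 and 4 were called in that setting, so the last 2 counts stand beside a high background. The 2 comparisons against Fibroblast share the same 3 Fibroblast arrays.

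**Figure D1:**
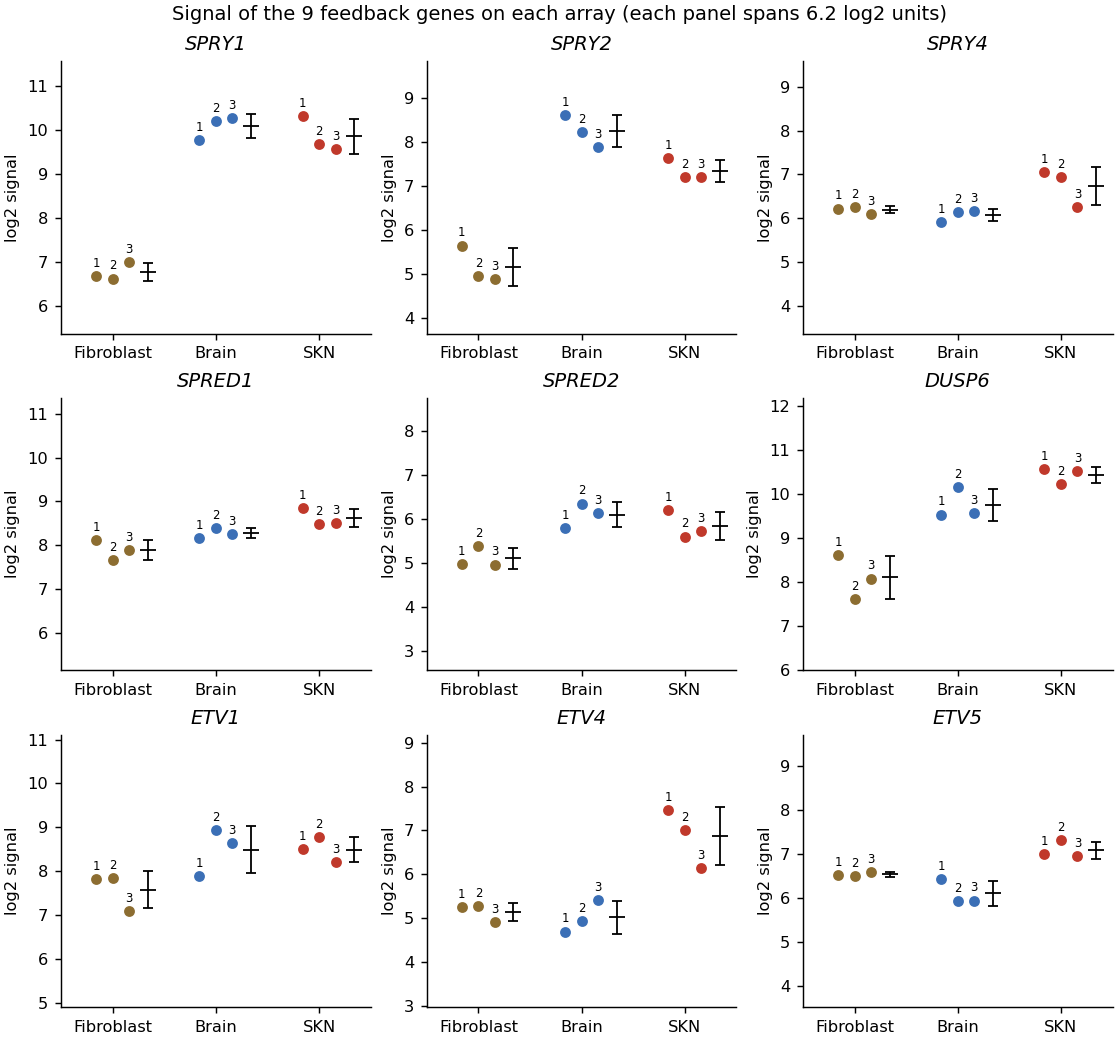
Log2 signal (vertical axis) of each of the 9 feedback genes on the 3 arrays of each group, with the replicate number above each point and the group mean ± SD beside the points. Each panel spans the same number of log2 units. The SPRY1 points of Fibroblast lie between 6.63 and 7.00, below all Brain and SKN points, and the ETV4 points of SKN lie above all points of the other groups.

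The Sprouty genes encode membrane-bound inhibitors that stop growth factor receptors from activating RAS and RAF. SPRY1 read 6.67, 6.63 and 7.00 log2 units in Fibroblast 1, 2 and 3. It read 9.79, 10.20 and 10.29 in the Brain arrays, and 10.32, 9.69 and 9.57 in the SKN arrays. All 6 Brain and SKN arrays were above all Fibroblast arrays by more than 2 log2 units, and Brain overlapped with SKN. SPRY1 was higher in SKN than in Fibroblast by 3.09 ± 0.23 (adjusted p 0.000398, an 8.53-fold signal) and higher in Brain than in Fibroblast by 3.32 ± 0.23 (adjusted p 5.39e-05). Between SKN and Brain it differed by -0.23 ± 0.23, with a 95% confidence interval of -0.75 to 0.28 (adjusted p 0.583), so Brain and SKN, the upper neighbours in its order, did not differ beyond their spread.

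SPRY2 had the order Brain, SKN, Fibroblast with no overlap between any of the groups. Its signals were 5.65, 4.96 and 4.88 in Fibroblast, 7.64, 7.21 and 7.22 in SKN, and 8.62, 8.23 and 7.89 in Brain. The lowest SKN array was above the highest Fibroblast array by more than 1 log2 unit, while the highest SKN array and the lowest Brain array lay close together. Against Fibroblast, SPRY2 was higher by 2.19 ± 0.26 in SKN (adjusted p 0.00386) and by 3.09 ± 0.26 in Brain (adjusted p 0.000153). The step from Brain down to SKN was -0.89 ± 0.26 (adjusted p 0.048), and this call is marginal: it ended in 6 of the 9 removals of 1 array (Fibroblast 2 or 3, Brain 1 or 2, SKN 2 or 3), at an adjusted p of up to 0.146. It also ended in 4 other settings: robust moderation (adjusted p 0.0502), arrays centred on their median (0.0532), quantile normalization (0.054) and no variance moderation (0.111).

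SPRY4 had overlapping Fibroblast and Brain levels. It read 6.23, 6.25 and 6.10 in Fibroblast, 5.91, 6.14 and 6.17 in Brain, and 7.05, 6.94 and 6.25 in SKN. SKN 1 and SKN 2 stood above the other arrays, and SKN 3 lay at the level of Fibroblast 2. The gene was not called in any comparison: SKN against Fibroblast gave 0.55 ± 0.20 (95% interval 0.09 to 1.01, adjusted p 0.205), SKN against Brain gave 0.67 ± 0.20 (0.21 to 1.13, adjusted p 0.0552) and Brain against Fibroblast gave -0.12 ± 0.20 (-0.58 to 0.34, adjusted p 0.728). Without SKN 3 the SPRY4 differences of SKN were 0.80 from Fibroblast (adjusted p 0.0292) and 0.92 from Brain (adjusted p 0.00426), both past the threshold.

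The SPRED proteins, relatives of Sprouty, bring the RAS inhibitor neurofibromin to the membrane, and the SPRED differences between groups were at most 0.99 on the log2 scale. SPRED1 read 8.12, 7.66 and 7.90 in Fibroblast, 8.17, 8.39 and 8.27 in Brain, and 8.86, 8.49 and 8.51 in SKN. The groups did not overlap, and the order was SKN, Brain, Fibroblast. The SKN level was higher than that of Fibroblast by 0.73 ± 0.15 (adjusted p 0.0433), a call that was kept in 1 of the 9 removals of 1 array, the one without Fibroblast 1, and reached an adjusted p of 0.121 in the others. Neighbours in the order were not called: SKN against Brain gave 0.34 ± 0.15 (95% interval -0.01 to 0.70) and Brain against Fibroblast 0.38 ± 0.15 (0.03 to 0.74).

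SPRED2 signals were 4.97, 5.38 and 4.96 in Fibroblast, 5.79, 6.35 and 6.13 in Brain, and 6.21, 5.60 and 5.73 in SKN. All Brain and SKN arrays were above all Fibroblast arrays, and Brain overlapped with SKN. The gene was called higher in Brain than in Fibroblast (0.99 ± 0.21, adjusted p 0.0121), a call kept in all 9 removals of 1 array and lost without Fibroblast 1 and Brain 3 together (0.90, adjusted p 0.105). The SKN difference from Fibroblast, 0.74 ± 0.21, was not called (95% interval 0.26 to 1.22, adjusted p 0.11). SKN and Brain differed by -0.25 ± 0.21 (-0.73 to 0.24, adjusted p 0.524).

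DUSP6, the cytoplasmic phosphatase that inactivates ERK, read 8.61, 7.62 and 8.08 in Fibroblast. Its signals were 9.54, 10.17 and 9.56 in Brain and 10.56, 10.22 and 10.52 in SKN. The 3 groups did not overlap, although Brain 2 lay just under the lowest SKN array, and Fibroblast had the widest spread. Relative to Fibroblast, DUSP6 was higher by 2.33 ± 0.27 in SKN (adjusted p 0.00359, a 5.02-fold signal) and by 1.65 ± 0.27 in Brain (adjusted p 0.0034). The SKN excess over Brain of 0.68 ± 0.27 was not called (95% interval 0.07 to 1.29, adjusted p 0.135).

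Fibroblast 1 was the highest array of its group for 3 of the 9 genes, DUSP6, SPRY2 and SPRED1, and Fibroblast 2 for 4. SPRY1, SPRED2 and ETV5 were below their group mean in Fibroblast 1 (deviations of -0.10, -0.14 and -0.006). Fibroblast 1 also had the highest crest and Schwann cell mean of its group. Its cell cycle mean was the highest too, at 6.01 against 4.61 in Fibroblast 2 and 4.31 in Fibroblast 3. The part of either in these signals was not tested. Without Fibroblast 1 the SKN excess over Fibroblast was 2.58 for DUSP6 (adjusted p 0.00315), 2.44 for SPRY2 (0.0033) and 3.04 for SPRY1 (0.00238). The calls of these 3 genes against Fibroblast, in SKN and in Brain, were kept in all 9 removals of 1 array, at adjusted p of at most 0.0199 in SKN and 0.0155 in Brain. They were also kept without Fibroblast 1 and Brain 3 together, an alternative chosen after seeing the data, at adjusted p of at most 0.00855.

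**Figure D2:**
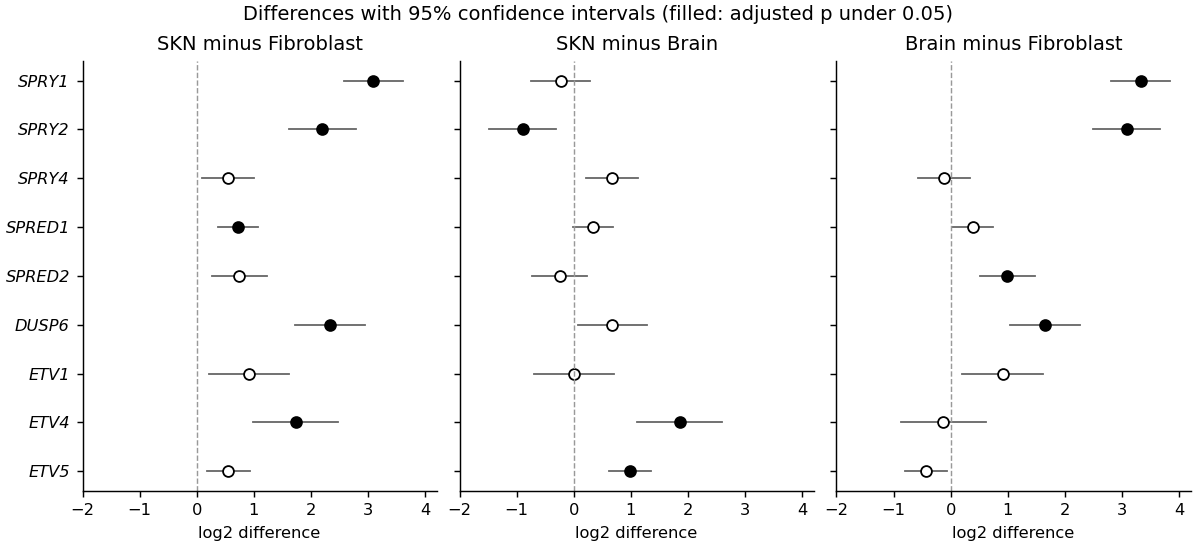
Log2 difference (horizontal axis) of each feedback gene in the 3 comparisons, with 95% confidence intervals from the limma fit. Filled points have an adjusted p under 0.05: 5 genes in SKN minus Fibroblast, 3 in SKN minus Brain and 4 in Brain minus Fibroblast.

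Of the 3 ETV genes, ETV4 and ETV5 were called higher in SKN than in Brain and ETV1 was not called in any comparison. ETV4 read 5.26, 5.27 and 4.91 in Fibroblast, 4.70, 4.94 and 5.42 in Brain, and 7.47, 7.01 and 6.15 in SKN. The SKN arrays had an SD of 0.67, the largest of the 9 genes in any group, yet all lay above every array of the other groups. Fibroblast and Brain overlapped (difference -0.13 ± 0.32, 95% interval -0.87 to 0.61, adjusted p 0.822). ETV4 was higher in SKN than in Brain by 1.86 ± 0.32 (adjusted p 0.00554), a call kept in all 9 removals of 1 array at adjusted p of at most 0.0232. The SKN excess over Fibroblast of 1.73 ± 0.32 (adjusted p 0.026) lost its call in 5 of the 9 removals, those of each Fibroblast array, SKN 1 or SKN 2, at an adjusted p of up to 0.0995.

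ETV5 was at its lowest in Brain. Its signals were 6.53, 6.49 and 6.58 in Fibroblast, 6.44, 5.93 and 5.94 in Brain, and 7.00, 7.31 and 6.95 in SKN. The order was SKN, Fibroblast, Brain with no overlap. The SKN excess over Brain of 0.99 ± 0.16 was called (adjusted p 0.00408) and was kept in all 9 removals, at adjusted p of at most 0.0178. The steps to Fibroblast were not called: SKN was at 0.55 ± 0.16 above it (95% interval 0.18 to 0.92, adjusted p 0.119), and Brain minus Fibroblast gave -0.43 ± 0.16 (-0.80 to -0.06, adjusted p 0.0983). Without Brain 1, the highest Brain array, the latter was -0.60 and was called (adjusted p 0.0197).

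ETV1 signals were 7.82, 7.85 and 7.09 in Fibroblast, 7.90, 8.94 and 8.64 in Brain, and 8.51, 8.78 and 8.20 in SKN. Brain and SKN overlapped widely (difference 0.004 ± 0.31, 95% interval -0.70 to 0.71), and both lay above Fibroblast, with Brain 1 just above Fibroblast 2. Neither excess was called, at 0.91 ± 0.31 for SKN (adjusted p 0.174) and 0.91 ± 0.31 for Brain (adjusted p 0.0721). The Brain excess of ETV1 over Fibroblast was 1.20 without Brain 1 and was then called (adjusted p 0.0222).

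Read across the list, the median difference of the 9 genes was 0.91 for SKN minus Fibroblast, 0.91 for Brain minus Fibroblast and 0.34 for SKN minus Brain, beside medians of -0.04, -0.05 and 0.0004 over all probe sets. The mean of SKN was above that of Fibroblast for 9 of 9 genes. Groups did not overlap for 8 of 9 genes in SKN against Fibroblast, beside 22.5% of all probe sets, for 7 in Brain against Fibroblast (36.8%) and for 6 in SKN against Brain (32.7%). The called count in SKN against Fibroblast was between 3 and 5 over the removals of 1 array. It was 3 without Fibroblast 1 and Brain 3, and the genes that lost their call there were SPRED1 and ETV4. Without the same pair of arrays 3 genes were called in Brain against Fibroblast and 3 in SKN against Brain.

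Within the SKN group 1 array was high for most of the genes. SKN 1 was the highest SKN array for 7 of the 9 genes and above the SKN mean for 8, with a mean deviation of 0.26 log2 units. SKN 3 was above the SKN mean for 1 gene, DUSP6, with a mean deviation of -0.25, and its furthest gene was ETV4 at -0.72. SKN 1 also stood apart in 10 measured cell cycle genes, which averaged 7.20 log2 units there, against 3.91 in SKN 2 and 4.68 in SKN 3. Without SKN 1 the excess over Fibroblast was 2.86 for SPRY1 (adjusted p 0.000817), 2.05 for SPRY2 (0.0162), 2.26 for DUSP6 (0.0166) and 1.43 for ETV4 (0.0699), so the first 3 calls held without that array and the last did not. Between SKN and Fibroblast 0 of the 10 cell cycle genes were called by limma, and 0 had an unadjusted p under 0.05. With SKN means from 3.91 to 7.20, that comparison could hardly detect a difference. The part of the cell cycle genes in the SKN differences was not tested.

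In Brain the lowest array for 7 of the 9 genes was Brain 1, with a mean deviation of -0.14 and its furthest gene ETV1 at -0.59. SPRY2 and ETV5 were the exceptions, each at its highest Brain level in Brain 1. The cell cycle genes averaged 8.63 log2 units in Brain 1, 7.40 in Brain 2 and 8.08 in Brain 3. Brain 1, like SKN 1, had the highest cell cycle mean of its group, while 7 of its 9 feedback genes were the lowest of the group. In Fibroblast the cell cycle genes averaged 4.31 to 6.01 per array, and 8 of 10 were called higher in Brain. Their part, and that of the crest and matrix markers, in the differences between Brain and Fibroblast was not tested.

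**Figure D3:**
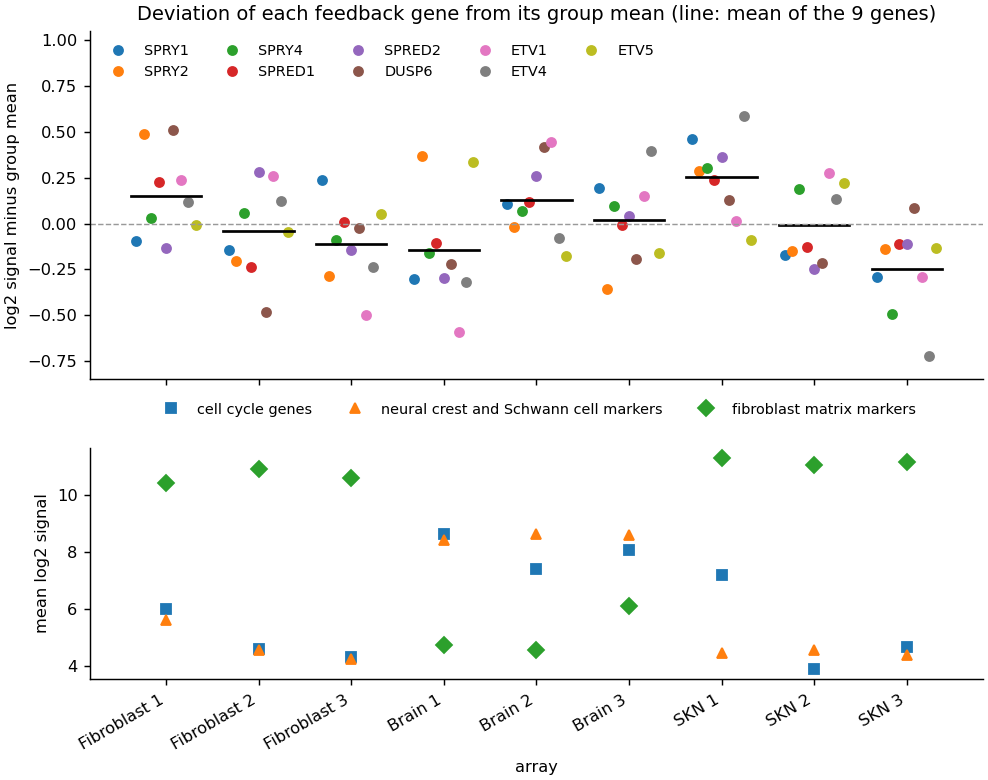
Top, log2 signal of each feedback gene minus the mean of its group, for each of the 9 arrays, with the mean over the 9 genes as a black line. Bottom, mean log2 signal per array of cell cycle genes, neural crest and Schwann cell markers and fibroblast matrix markers. The line is highest for SKN 1 (0.26) and lowest for SKN 3 (-0.25), and SKN 1 has the highest cell cycle mean of the SKN arrays (7.20). Brain 1 has the highest cell cycle mean of the Brain arrays (8.63) and their lowest line (-0.14).

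Other genes that ERK signalling induces were read from a list of 18, all measured. In SKN against Fibroblast 4 were called higher and 0 lower, beside 3.34% of all probe sets called, and the list median was 0.74. Without Fibroblast 1 and Brain 3 the calls were 2. IL17RD, a membrane inhibitor of FGF signalling also called SEF, read 4.52, 4.61 and 3.85 in Fibroblast, 5.05, 5.14 and 4.66 in Brain, and 6.52, 7.07 and 6.78 in SKN. Its SKN arrays were above all others, by 2.46 ± 0.24 over Fibroblast (adjusted p 0.00152) and 1.84 ± 0.24 over Brain (adjusted p 0.0012), and both calls were kept in all 9 removals. Between Brain and Fibroblast IL17RD was not called (0.62 ± 0.24, 95% interval 0.08 to 1.16), although all its Brain arrays were above all its Fibroblast arrays.

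ERRFI1, an inhibitor that binds the EGF receptor kinase, was higher in SKN by 2.91 ± 0.47 over Fibroblast (adjusted p 0.0148) and 2.50 ± 0.47 over Brain (adjusted p 0.00801). DUSP5, a nuclear ERK phosphatase, was higher by 2.36 ± 0.39 (adjusted p 0.0165) and 1.90 ± 0.39 (adjusted p 0.012). EGR1, an immediate early transcription factor, was higher by 1.89 ± 0.35 (adjusted p 0.0255) and 1.46 ± 0.35 (adjusted p 0.0238). The calls of these 3 genes against Fibroblast ended in 3, 4 and 2 of the 9 removals, each time including those of Fibroblast 2 and of Fibroblast 3, and the list then held 1 call. The removals of SKN 3 (ERRFI1 and DUSP5) and SKN 1 (DUSP5) ended the others. EGR1 also lost its call against Brain without Brain 2 or Brain 3.

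In SKN against Brain 7 of the 18 list genes were called higher and 2 lower, beside 16.4% of all probe sets called, and the median was 0.48. Beside the 4 genes above, DUSP1, a phosphatase of stress-activated kinases and ERK, was higher in SKN by 2.13 ± 0.19 (adjusted p 0.000183), EPHA2 by 1.09 ± 0.12 (adjusted p 0.000425) and MYC by 0.69 ± 0.15 (adjusted p 0.016). The MYC call ended without Brain 3 or SKN 2, at adjusted p of up to 0.0531. Lower in SKN than in Brain were the ERK phosphatase DUSP7 (-1.28 ± 0.23, adjusted p 0.00596) and FLRT3, a membrane partner of FGF receptors (-1.40 ± 0.33, adjusted p 0.0225, lost without Brain 1, Brain 3, SKN 1 or SKN 3).

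Against Fibroblast, Brain had DUSP7 (1.40 ± 0.23, adjusted p 0.00339) and FLRT3 (2.52 ± 0.33, adjusted p 0.00134) higher, DUSP1 (-1.35 ± 0.19, adjusted p 0.00194) and EPHA2 (-0.61 ± 0.12, adjusted p 0.00721) lower, and 14 of the 18 not called. In that comparison 20.6% of all probe sets were called. The EPHA2 call was lost without Fibroblast 1 and Brain 3. FOS read 10.44 in SKN 1, against 7.33 and 6.80 in the other SKN arrays, and was not called in any comparison. CCND1, SPRED3, DUSP2, DUSP9, FOSL1, IER3, LRIG1 and PHLDA1 were also not called in any comparison.

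**Figure D4:**
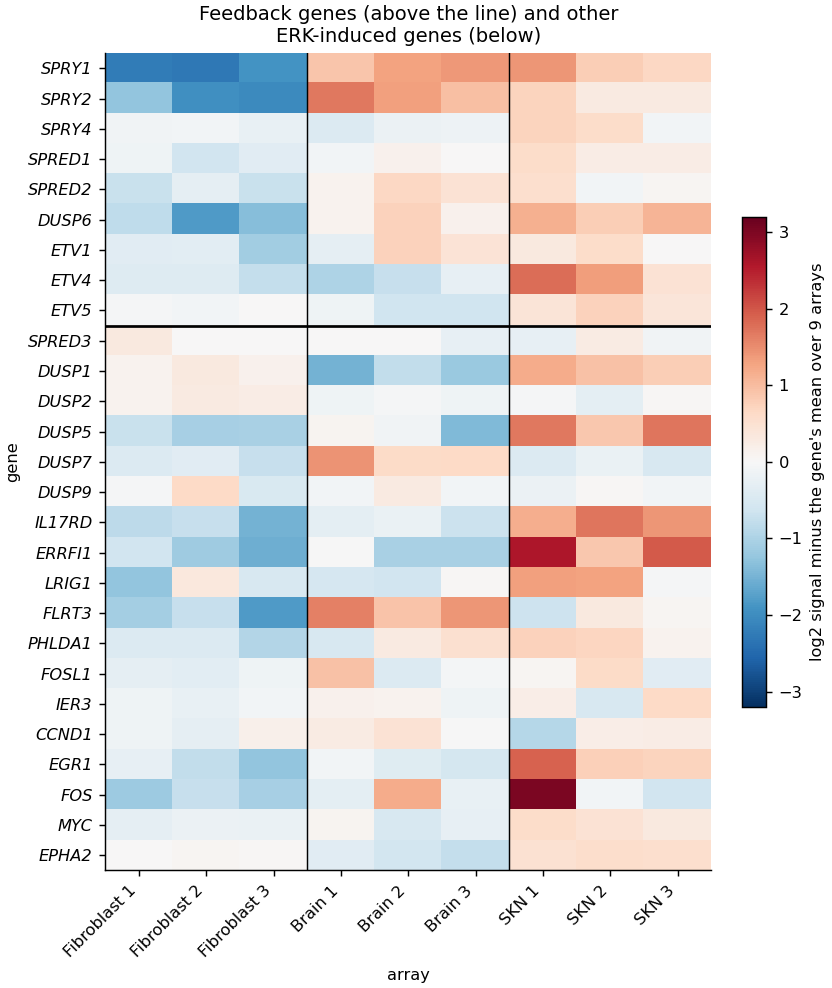
Log2 signal of the 9 feedback genes and of 18 other ERK-induced genes (rows), each minus its mean over the 9 arrays (columns), with red above and blue below that mean. SPRY1, SPRY2 and DUSP6 are blue in all 3 Fibroblast arrays and red or pale in the Brain and SKN arrays, while ETV4, IL17RD, DUSP5 and ERRFI1 are red in the SKN arrays.

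The steps of the signal route showed other patterns. Of 19 measured genes from receptor adaptors to ERK and its substrates, 2 were called higher in SKN than in Fibroblast (NRAS, a RAS protein, 0.68 ± 0.12, and the scaffold KSR1, 0.79 ± 0.15), 1 lower (the ERK substrate kinase RPS6KA3, -0.79 ± 0.13) and 16 not called. Of all probe sets 3.34% were called in that comparison. The calls of NRAS, KSR1 and RPS6KA3 ended in 5, 5 and 4 of the 9 removals. In Brain against Fibroblast 7 were higher and 2 lower, beside 20.6% of all probe sets called. The higher ones included the adaptor GAB1 (2.34 ± 0.27, adjusted p 0.000649), the RAS activator SOS2 (1.29 ± 0.12, adjusted p 0.000211), MAPK3, which encodes an ERK kinase (1.24 ± 0.19, adjusted p 0.00288), NRAS (1.10 ± 0.12) and KSR1 (0.82 ± 0.15). RPS6KA3 was lower in Brain (-1.57 ± 0.13, adjusted p 0.00017). The other calls of that comparison were less firm: the RAS inhibitor gene NF1 (0.39 ± 0.11) lost its call in 8 of the 9 removals, and the ubiquitin ligase gene CBL (0.62 ± 0.16) and the RAS inhibitor gene RASA1 (-0.84 ± 0.22) lost theirs in 5 each. In SKN against Brain 2 of the 19 were called higher (RPS6KA3 and RASA1) and 6 lower, beside 16.4% of all probe sets called. GAB1, SOS2 and MAPK3 were also higher in Brain than in SKN, by differences of -2.49 ± 0.27, -1.22 ± 0.12 and -1.12 ± 0.19 for SKN minus Brain. The calls of GAB1, SOS2 and MAPK3 in both comparisons with Brain were kept in all 9 removals.

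Among 8 receptors of EGF and FGF, FGFR1 was higher in SKN than in Fibroblast (0.67 ± 0.10, adjusted p 0.0101, lost without Fibroblast 1 and Brain 3) and FGFR2 was lower (-3.01 ± 0.43, adjusted p 0.00924). The other 6 were not called between SKN and Fibroblast, where 3.34% of all probe sets were called. In Brain against Fibroblast 4 receptors were higher and 2 lower: ERBB3 (4.94 ± 0.40, adjusted p 0.000132), FGFR3 (1.94 ± 0.26), ERBB4 (1.43 ± 0.31) and ERBB2 (1.06 ± 0.13) were higher, and FGFR2 (-3.26 ± 0.43) and EGFR (-2.56 ± 0.48, adjusted p 0.00694) were lower, and these 6 calls were kept in all 9 removals. Of all probe sets 20.6% were called in Brain against Fibroblast. In SKN against Brain 2 were higher and 4 lower, beside 16.4% of all probe sets called. The 4 lower were the same ERBB2, ERBB3, ERBB4 and FGFR3, and the 2 higher were FGFR1 (0.44 ± 0.10, lost without SKN 1) and EGFR (2.00 ± 0.48, lost in 4 of the 9 removals).

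Among 14 ligands 1 was called higher and 2 lower in SKN than in Fibroblast. The lower ones were FGF5 (-4.73 ± 0.27) and NRG1 (-4.26 ± 0.47). The higher one, FGF18 (0.57 ± 0.12, adjusted p 0.0387), lost its call in all 9 removals, at an adjusted p of up to 0.123. In Brain against Fibroblast FGF9 (4.18 ± 0.51), FGF5 (2.64 ± 0.27), HBEGF (1.33 ± 0.39, lost in 6 of the 9 removals) and FGF2 (0.95 ± 0.19) were called higher. FGF7 (-5.48 ± 0.48), NRG1 (-4.35 ± 0.47) and FGF18 (-0.53 ± 0.12, lost without Fibroblast 1 and Brain 3) were called lower. In SKN against Brain FGF7 and FGF18 were called higher and FGF5, FGF9, HBEGF (lost without Fibroblast 1 and Brain 3) and FGF2 lower. Of all probe sets 3.34% were called in SKN against Fibroblast, 20.6% in Brain against Fibroblast and 16.4% in SKN against Brain.

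The PEA3 genes were also set beside other ETS factors and their regulators. Of 16 measured, 1 was called higher in SKN than in Fibroblast (ELK3, 0.98 ± 0.21, adjusted p 0.0446, lost in 8 of the 9 removals) and 2 lower: ETS2 (-2.29 ± 0.28, adjusted p 0.00429) and ERG (-1.32 ± 0.20, adjusted p 0.0114). Of all probe sets 3.34% were called in that comparison. In Brain against Fibroblast 2 were called higher and 2 lower, beside 20.6% of all probe sets called. In SKN against Brain 1 was called higher and 3 lower, beside 16.4%. ETS1 was higher in Brain than in Fibroblast by 2.47 ± 0.20 (adjusted p 0.000135) and than in SKN (-2.61 ± 0.20 for SKN minus Brain, adjusted p 8.26e-05). ERG means were 3.76 in Brain, 7.59 in Fibroblast and 6.27 in SKN, and both calls with Brain were kept in all 9 removals. ELK3 was called higher and ETS2 lower in Brain than in Fibroblast, the latter lost in 4 of the 9 removals. ETS2 was also called lower in SKN than in Brain (lost in 2). ATXN1L, a partner of CIC, was lower in SKN than in Brain (-0.53 ± 0.13, adjusted p 0.024, lost in 5 of the 9 removals). CIC, which represses PEA3 genes until ERK inactivates it, was not called in any comparison, with 0.27 ± 0.19 in SKN minus Fibroblast (95% interval -0.16 to 0.70) and 0.40 ± 0.19 in Brain minus Fibroblast (-0.04 to 0.83). COP1, a ubiquitin ligase that marks PEA3 proteins for degradation, was also not called, with differences of 0.03 ± 0.09 and 0.18 ± 0.09.

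**Figure D5:**
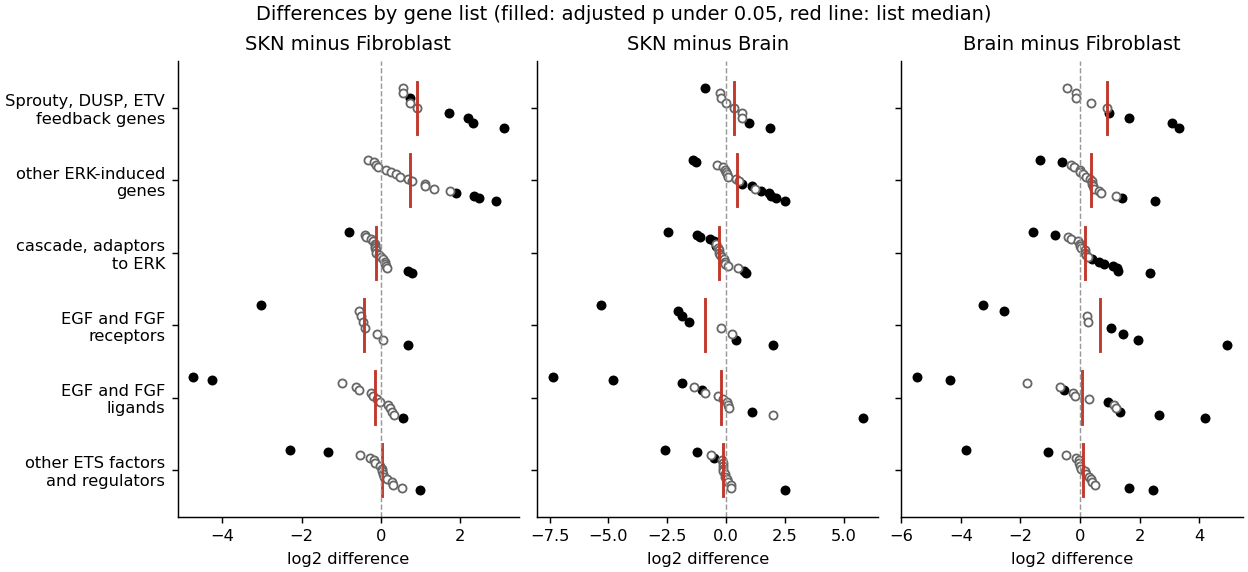
Log2 difference (horizontal axis) of each gene in 6 lists (rows), with 1 panel for each comparison. Filled points have an adjusted p under 0.05 and the red line is the list median. In SKN minus Fibroblast the median is 0.91 for the Sprouty, DUSP and ETV genes and 0.74 for other ERK-induced genes, and -0.12 for the signal route from adaptors to ERK.

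Profiles most like those of the feedback genes were found by the root mean square (RMS) difference over the 9 arrays, after each gene was centred on its own mean. This was done among 15483 other named genes for the 4 members whose group means span at least 1 log2 unit, and these distances mostly reflect the 3 group means. Nearest to SPRY1 were ADD3 (RMS difference 0.42), LGR4 (0.47) and SQLE (0.50), beside an RMS of 1.54 of the centred SPRY1 profile itself. SPRY2 lay nearest to CORO2B (0.36), MMP19 (0.38) and DENND2A (0.42), beside its own 1.33. DUSP6 lay nearest to SETBP1 (0.34), MSMO1 (0.39) and HMGA1 (0.40), beside 1.02. For ETV4 the nearest were COL21A1 (0.24), GRIA1 (0.25) and PNP (0.28), beside 0.92. Within the list the nearest profile to SPRY1 was that of SPRY2 (0.55), the nearest to DUSP6 was that of ETV1 (0.71) and the nearest to ETV4 was that of SPRY4 (0.59).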

How the data were processed

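The deposited values form 1 table of 32205 probe sets on 9 arrays, which the authors had normalized. MAS5, RMA and Partek are listed in the submitters' processing notes, which do not say what each did. The log2 scale of the deposited values was inferred from their range (0.561 to 13.47) and array medians, and they were used as deposited, without a filter. Without detection calls in the table, a low reading does not show absence, and the number of arrays limits the precision. Levels of different genes were not compared.

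Genes were named from the platform annotation (16545 probe sets with 1 symbol, 370 with several, 15290 not listed). All 9 members matched the RefSeq dog gene table by identifier, with the same symbol. A gene is represented by its probe set of highest mean. The members and gene lists were chosen with earlier results of these data known. The rule for named genes takes all members, called genes of the pathway lists, any receptor or ligand, and the 3 nearest profiles of members spanning at least 1 log2 unit. CIC, COP1, PAX6, FABP7, NES and the uncalled ERK-induced genes were named after their values were seen.

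In R 4.3.3, limma 3.58.1 fitted 1 coefficient per group to all 9 arrays (6 residual and 2.41 prior degrees of freedom, eBayes without trend), with p adjusted over all probe sets. The fit was tested on simulated data. Alternatives changed the filter, moderation, array weights, scaling, arrays in the fit, features tested and replicate block, and left out each array in turn.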

Additional observations from a re-analysis of the deposited data

How the results depend on the processing

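The number of called feedback genes in SKN against Fibroblast was 5. It was 3 without variance moderation, 3 with only the 6 arrays of the 2 groups, 3 with the replicate block and 3 without Fibroblast 1 and Brain 3, and 3 to 5 over the removals of 1 array. The removals that left 3 were those of Fibroblast 2, Fibroblast 3, SKN 1 and SKN 2. In each of these settings the calls lost were those of SPRED1 and ETV4. The count was 2 to 4 (3 as reported) in SKN against Brain and 3 to 6 (4 as reported) in Brain against Fibroblast over all alternatives. ETV1 in SKN minus Brain, near 0 and not called, turned to -0.20 with array weights and -0.0196 with quantile normalization, and -0.29 to 0.23 over the removals of 1 array, below 0 without Brain 1 (-0.29), SKN 1 (-0.0046) or SKN 2 (-0.14). ETV4 in Brain minus Fibroblast, not called, was -0.33 to 0.0316 over the removals and above 0 only without Brain 1. SPRY4 was called in SKN against Brain with quantile normalization (adjusted p 0.0409), with probe sets below the median level left out (0.0325) and with 1 probe set per gene (0.0366). The cause of these changes was not tested. Of the 18 other ERK-induced genes, 1 to 8 were called higher in SKN than in Fibroblast over all alternatives, against 4 as reported; 8 was without Brain 1, and 1 was without variance moderation, Fibroblast 2 or Fibroblast 3.

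The replicate numbers are not stated to mark a shared dog, batch or day. Same-numbered arrays of different groups had deviations from their group means that correlated at -0.04 to 0.15, against -0.14 to 0.10 for the others. Between Fibroblast and SKN the same-numbered pairs were at 0.15, 0.04 and 0.05 for numbers 1, 2 and 3. Such values cannot show whether a number marks a shared dog or batch, and the main fit took the numbers as names. With the replicate block 3 feedback genes were called in SKN against Fibroblast, 3 in SKN against Brain and 4 in Brain against Fibroblast. A second probe set could not be tried, since each member has 1.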
